A study of Mus musculus with 12 samples.

Results

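Leukaemia cells that had survived induction chemotherapy were compared with leukaemia cells of untreated disease. The surviving cells came from the 3 mice titled iCT, sampled 3 days after a course of doxorubicin and cytarabine ended, and the reference cells from the 5 mice given vehicle. These 8 libraries are part of a series of 12, whose other libraries came from 4 mice at 10 days. All 12 carried the MLL-AF9 transgene, all cells were sorted by GFP from bone marrow, and each library was 1 mouse. The comparison covered every gene with at least 1 FPKM in at least 3 of the 8 libraries, which was 10723 of 24881 genes. FPKM is fragments per kilobase of transcript, scaled to library size. This filter did not use the groups. The gene lists, the markers and the genes followed one by one were chosen with earlier results of these data known. Strain, sex, age, drug doses, the route by which the leukaemia was established and the vector that carried GFP are not stated in the labels, so the sorted fraction is defined by GFP alone.

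MLL-AF9 joins a chromatin regulator to a partner of the transcription elongation machinery and holds myeloid progenitors in a self-renewing state through Hoxa and Meis1 genes. Doxorubicin traps topoisomerase II on cut DNA, and cytarabine is a nucleoside analogue that stalls replication after its phosphorylation. Both cause DNA damage, to which p53 answers by inducing genes that stop the cell cycle, repair DNA or start apoptosis. Cells that outlast such a course are the source from which acute myeloid leukaemia regrows.

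The libraries carried the leukaemia markers that the labels call for. Of 8 markers of this leukaemia, 8 were above 1 FPKM in every library, among them Hoxa9 (41.7 to 75.8 FPKM over the 8 libraries), Mpo (1920 to 3090) and Myb (87.8 to 114). Depth, read from the confidence intervals of the tables, was 1225254 to 8359793 fragments in 7 libraries and 361914 in iCT mouse 1. That library stood apart: it held 10479 genes above 0 against 12439 to 14464, and it lay at 94 on the first principal component (50.1% of the variance), with the others between -21.9 and 7.8. Its values for genes with few fragments are coarse. Many results that change when that library is left out are given without it too. Some list counts that change are given with all 8 libraries only. The median gene had an SD of 0.20 on the log2(FPKM + 1) scale among vehicle mice and of 0.37 among iCT mice, or 0.20 in the iCT pair without mouse 1.

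At 3 days after treatment the surviving cells had more mRNA of some p53 targets, of most stefin A protease inhibitors and of some macrophage and osteoclast genes. They had less of Kit and Cd34 and of some monocyte antigen, MHC class I and sterol synthesis genes. By limma on log2(FPKM + 1), 351 of 10723 genes (3.27%) passed an adjusted p of 0.05. Of these, 118 (1.1% of the genes tested) rose, 69 of them at least 2-fold, and 233 (2.17%) fell, 125 of them at least 2-fold. The groups did not overlap in 349 of the 351, the exceptions being Lyz2 (adjusted p = 0.0958 without iCT mouse 1) and 1 copy of Hba-a1, named here after their values were seen, and over all genes tested they did not overlap in 16.3%. The median gene changed by -0.08, so most genes lay slightly lower in iCT. The 233 falling genes had a median transcript length of 2773 bases and a median GC content of 48.3%, the 118 rising genes 1997 bases and 52.6%, and all genes tested 3188 bases and 49.6%.

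The share of rises depended on scaling. It was 33.6% of calls with FPKM as deposited, 42.9% after median-of-ratios scaling (155 higher, 206 lower), 45.0% after quantile normalization (198 and 242) and 49.9% after removal of trends on the length and GC content of transcripts (241 and 242). The last of these moved the median gene up by 0.11, from -0.08 to 0.03. No called gene changed sign (0 reversals over all settings tried). Without iCT mouse 1, with the same genes tested, 373 genes passed (3.48%), of which 132 (1.23% of the genes tested) were higher and 241 (2.25%) lower. Among them were 88 of the 118 rises and 176 of the 233 falls. Of the 351 calls with all 8 libraries, 125 were on genes expected to have under 10 fragments in iCT mouse 1. Of the 233 falls, 32 were listed at 0 in that mouse. A fit that also held the 4 later libraries, and so shared their spread, called 1080 genes (10.1%), which included 350 of the 351.

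With 8 libraries, calls near the threshold depended on single mice. With 1 library left out at a time, 124 (without vehicle mouse 5) to 1065 (without iCT mouse 2) genes passed, and the other 6 counts were 232, 142, 156, 139, 357 and 193 without vehicle mice 1 to 4, iCT mouse 1 and iCT mouse 3. Of the 339 calls that could be tested in all 8 of these fits 103 held in every one, among them all 83 with an adjusted p under 0.01. Those 103 had adjusted p values up to 0.0161 in the full comparison, so values above that mark genes whose call ended without at least 1 mouse. The remaining 12 calls, Phlda3, Zmat3 and Cd38 among them, were on genes under 1 FPKM in every vehicle mouse, which could not be tested with an iCT mouse left out.

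**Figure D1:**
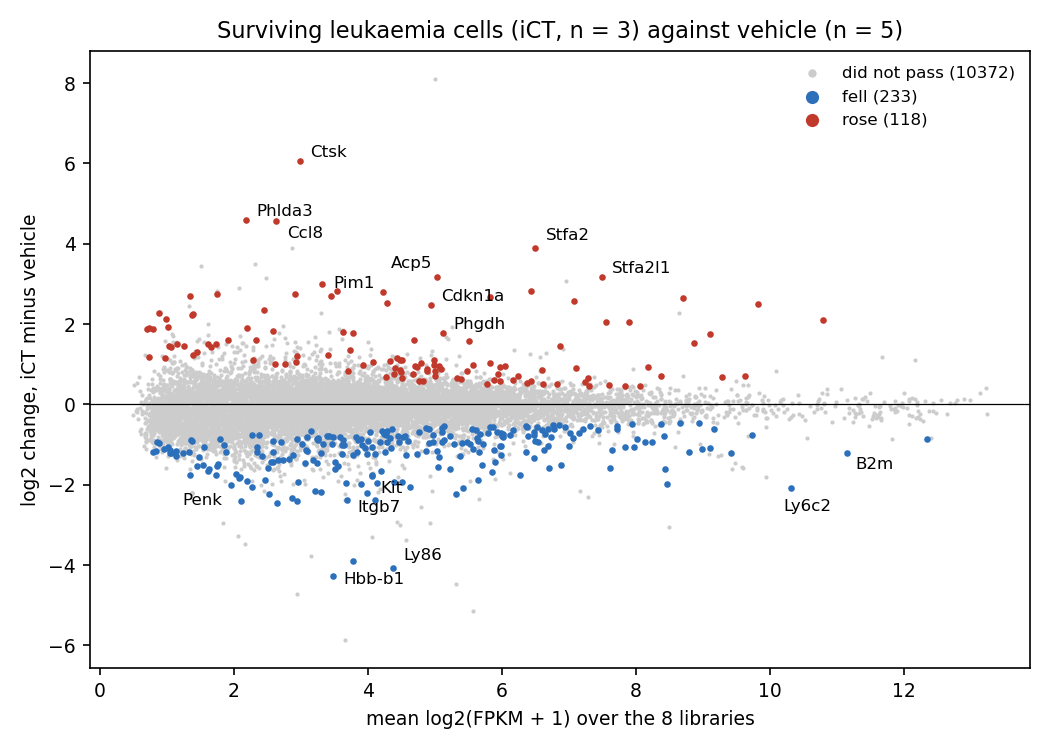
Log2 change (iCT minus vehicle, vertical axis) against the mean log2(FPKM + 1) over the 8 libraries (horizontal axis) for the 10723 genes tested, 1 point per gene. The 118 genes that rose are red, the 233 that fell are blue, and the genes labelled run from Ctsk at 6.06 to Hbb-b1 at -4.27.

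A minority of the p53 targets tested rose, some of them by large amounts. Phlda3, a p53-induced inhibitor of AKT signalling (chromosome 1, 135766085 to 135769134, GRCm38), stood at 0.111, 0.295, 0.577, 0.642 and 0.310 FPKM in vehicle mice 1 to 5 and at 39.9, 24.04 and 34.0 in iCT mice 1 to 3. All vehicle mice were under 1 FPKM and all iCT mice far above them, a log2 change of 4.59 (SE 0.23, adjusted p = 1.37e-05). Cdkn1a, which encodes the cyclin-dependent kinase inhibitor p21 (chromosome 17, 29090986 to 29100722), stood at 13.96, 16.0, 21.0, 13.98 and 12.1 FPKM in the vehicle mice and at 101, 70.7 and 97.7 in the iCT mice. The lowest iCT mouse was 3.38 times the highest vehicle mouse, and the log2 change was 2.48 (SE 0.19, adjusted p = 0.000334). Zmat3, an RNA-binding growth suppressor, read 0.517, 0.379, 0.391, 0.487 and 0.536 FPKM in vehicle and 6.34, 4.19 and 7.19 in iCT mice, again without overlap. Phlda3 and Zmat3 reached 1 FPKM in no vehicle mouse, so they entered the test because of their level in iCT mice.

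Of 34 tested p53 targets (of 43 listed) 9 rose and 0 fell, with a median of 0.30 against -0.08 for all genes. Cyclin G1 (Ccng1) rose by 1.02 (adjusted p = 0.0153). The other members that passed, named after their values were seen, were the epoxide hydrolase gene Ephx1 (1.46), the phospholipid transfer protein gene Pltp (1.60), the microtubule regulator gene Psrc1 (1.05), the apoptosis-enhancing nuclease gene Aen (0.75) and the phosphatase gene Ptp4a3 (0.59). Pltp no longer passed when iCT mouse 1 was left out (adjusted p = 0.0838), and with that mouse left out and the same genes tested the list again counted 9 higher and 0 lower. With the filter applied anew it held 2 higher without iCT mouse 3 to 9 without iCT mouse 2. Trp53 itself, at 110 ± 13.1 (SD, n = 5) against 120 ± 7.62 (SD, n = 3) FPKM, had a log2 change of 0.13 (adjusted p = 0.534). Mdm2, the ligase that degrades p53 and a p53 target, read 37.2, 29.9, 27.4, 23.5 and 24.9 FPKM in vehicle and 56.3, 31.1 and 34.5 in iCT mice; the groups overlapped and the change of 0.46 did not pass (adjusted p = 0.229).

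The promoter of Cdkn1a is shown because it was the called p53 target whose sequence around a transcript start held a p53 response element. The search used the consensus of 2 decameric half-sites with up to 13 bases between them, on both strands, over 250 bases before and 50 after each RefSeq start (GRCm38.p6). It matched 1 of 38 windows of the p53 list (26 of its 34 tested members had a window) and 24 of 32851 windows of all genes (0.073%). Capitals mark the match, 32 bases from position 178 of the window at chr17:29090729-29091028 on the + strand.
Cdkn1a: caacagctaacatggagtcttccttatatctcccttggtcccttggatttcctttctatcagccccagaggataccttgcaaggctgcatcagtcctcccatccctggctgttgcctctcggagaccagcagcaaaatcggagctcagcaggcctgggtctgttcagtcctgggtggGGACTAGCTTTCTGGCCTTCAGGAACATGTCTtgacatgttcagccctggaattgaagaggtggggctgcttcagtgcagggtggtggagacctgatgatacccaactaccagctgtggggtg

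Genes that carry out apoptosis did not pass with all 8 libraries. By limma 0 of 15 BCL2 family genes rose and 0 fell (median 0.07), with 2 at an unadjusted p under 0.05. Among caspases and death receptors 0 of 26 rose and 0 fell (median -0.10), with 7 at an unadjusted p under 0.05, against 2487 of all 10723 genes. Without iCT mouse 2, 2 genes of each list rose and 3 of the caspase list fell. The pore-forming effector gene Bax came closest, at 117, 163, 129, 158 and 128 FPKM in vehicle and 177, 245 and 248 in iCT mice. Its groups did not overlap, with a change of 0.67 (adjusted p = 0.0518), and it passed without iCT mouse 1 (adjusted p = 0.0164). Bbc3, the p53-induced BH3 gene known as PUMA, had a change of 0.07 (adjusted p = 0.905), and the survival genes Mcl1, Bcl2l1 and Bcl2 had changes of 0.17, 0.91 and 0.40 (adjusted p = 0.367, 0.201 and 0.507). Bcl2l1 read 54.2 FPKM in iCT mouse 1 against 13.4 and 21.9 in the other 2, and iCT mouse 2 (13.4) lay within the range of the vehicle mice. Ripk3, the kinase of necroptosis, read 28.6 ± 2.99 (SD, n = 5) in vehicle and 46.1 ± 11.3 (SD, n = 3) FPKM in iCT mice (adjusted p = 0.0652).

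Cell cycle genes as a whole stayed near the level of all genes, with a few exceptions. Among DNA replication genes 0 of 47 rose and 0 fell by limma (median -0.05, with 8 at an unadjusted p under 0.05), and among those of G2 and mitosis 0 of 56 rose and 3 fell (median -0.02). The falls were 3 and 6 without iCT mouse 2, and 0 of G2 and mitosis without vehicle mouse 2. The 3 of the full comparison were Cdc25b, the phosphatase that activates CDK1 at mitotic entry (-1.38, adjusted p = 0.0275), Nusap1, a spindle protein (-0.61), and Top2a, the topoisomerase that doxorubicin traps (-0.57). Top2a went from 66.8 ± 8.01 (SD, n = 5) to 44.4 ± 1.43 (SD, n = 3) FPKM and did not pass once iCT mouse 1 was left out (adjusted p = 0.0589). The proliferation marker Mki67 had a change of 0.49 (adjusted p = 0.256), with vehicle mouse 5 at 13.97 FPKM above every iCT mouse (10.5 to 13.4). Of 31 G1 cyclins and CDK inhibitors 2 rose, Cdkn1a and cyclin D2 (Ccnd2, 1.50, adjusted p = 0.0264), and 1 fell, Cdkn1b, which encodes the inhibitor p27 (-0.85, adjusted p = 0.0471). Of 52 genes of DNA damage signalling and repair 0 rose and 1 fell, the damage-marking histone variant gene H2afx (-0.65, adjusted p = 0.0163), and the list's median was -0.16.

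Among the histone genes that are transcribed in S phase, the calls were on H2A genes. Of 29 listed genes tested, 3 rose and 0 fell, with a median of 0.38, and the 3 were the H2A genes Hist1h2ab, Hist1h2ac and Hist1h2ad. Hist1h2ad stood at 20.4, 21.9, 15.8, 19.0 and 20.1 FPKM in vehicle and at 44.9, 38.6 and 32.7 in iCT mice, with no overlap (log2 change 0.96, adjusted p = 0.0116). Only 3.6 fragments of it were expected in iCT mouse 1. Without that mouse its change was 0.85 (adjusted p = 0.0171). Outside the list, 6 more H2A genes of the same cluster on chromosome 13 rose by 0.89 to 1.03, Hist1h2af, Hist1h2ag, Hist1h2ah, Hist1h2ai, Hist1h2ak and Hist1h2an, named after their values were seen. In all, 9 of the 14 tested H2A entries of this cluster rose (median 0.95), against 0 of its 40 tested H1, H2B, H3 and H4 entries (median 0.33); whether the types differ was not tested. The H2A copies are near-identical in sequence, so these 9 values are not 9 independent measurements. The polyadenylated variant genes H3f3a and H2afv, also seen afterwards, fell by 0.75 and 0.73 on the log2 scale. Without iCT mouse 1 H3f3a and Hist1h2ak did not pass (adjusted p = 0.0569 and 0.0525).

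Genes that handle the drugs themselves gave few calls. For cytarabine, 1 of 24 members rose and 0 fell (median 0.00). The riser was Rrm2, the regulated subunit of ribonucleotide reductase, which supplies the competing natural nucleotides: it read 84.5, 81.5, 87.2, 80.7 and 88.8 FPKM in vehicle and 105, 135 and 125 in iCT mice, without overlap (log2 change 0.51, adjusted p = 0.0392). Dck, the kinase that activates cytarabine, went from 16.0 ± 2.58 (SD, n = 5) to 16.3 ± 1.40 (SD, n = 3) FPKM (adjusted p = 0.930), and the uptake carrier Slc29a1, the triphosphohydrolase Samhd1 and the nucleotidase Nt5c2 had changes of 0.14, -0.26 and 0.09 (adjusted p = 0.701, 0.490 and 0.711). The mitochondrial kinase gene Dguok, one of the list's closest to the threshold, had a change of -1.11 (adjusted p = 0.0551). Among 20 genes of doxorubicin handling Hmox1, haem oxygenase 1, rose by 1.79 (adjusted p = 0.00712) and Top2a fell, while Top2b had a change of -0.26 (adjusted p = 0.282).

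The core programme of the fusion protein did not pass, whereas surface markers of progenitors fell. Of 20 tested Hoxa, Meis1 and related genes 0 rose and 0 fell by limma (median -0.11), and of 26 MLL complex and elongation genes 0 and 0 (median -0.02). At an unadjusted p under 0.05 there were 4 and 0. Hoxa9 and Meis1 had changes of 0.26 and -0.30 (SE 0.15 and 0.20). Of 26 stem and progenitor markers 9 fell and 1 rose, with a median of -0.54, and without iCT mouse 1, with the same genes tested, the counts were again 9 and 1 (7 fell at the least, without vehicle mouse 2). Kit, the stem cell factor receptor (chromosome 5, 75574987 to 75656721), stood at 25.2, 25.5, 26.3, 27.5 and 24.3 FPKM in vehicle and at 8.72, 5.60 and 6.21 in iCT mice. The vehicle mice spanned 3.2 FPKM, and the highest iCT mouse was far below them (log2 change -1.79, SE 0.16, adjusted p = 0.000692). Cd34 read 75.2, 83.5, 122, 88.1 and 79.4 FPKM in vehicle and 22.3, 30.1 and 28.4 in iCT mice, also without overlap (log2 change -1.69, adjusted p = 0.00156).

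Cd93, the complement-associated receptor of early progenitors, fell by 2.21 on the log2 scale. Others that fell were Clec12a, Slc22a3, Ly6e, Ly6a and Cd48, with changes from -1.58 to -0.84, and all but Clec12a, Ly6e and Ly6a were named after their values were seen. Cd38, an ectoenzyme that consumes NAD, rose instead. It went from 0.251, 0.791, 0.610, 0.252 and 0.486 FPKM in vehicle to 4.88, 5.69 and 7.74 in iCT mice (log2 change 2.26, adjusted p = 0.00156). Cd38 too entered the test because of its level in iCT mice. Flt3 read 1.18, 2.49, 1.69, 2.35 and 1.36 and 5.57, 1.31 and 1.51 FPKM, with overlap and iCT mouse 1 apart (adjusted p = 0.646). Of 28 cytokine receptors 1 rose (5 without iCT mouse 2), the decoy receptor Il1r2 (1.84, adjusted p = 0.0361), and 1 fell, the interferon gamma receptor Ifngr1 (-0.52), which did not pass without iCT mouse 1 (adjusted p = 0.0571).

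Some genes of adhesion to the marrow fell. Of 28 tested genes 0 rose and 6 fell, with a median of -0.30, and the counts were the same without iCT mouse 1 (4 fell without vehicle mouse 2). Itgb7, which pairs with integrin alpha 4, read 16.9, 34.1, 25.1, 19.98 and 21.8 FPKM in vehicle and 2.92, 3.50 and 4.53 in iCT mice, with all iCT mice under 5 FPKM (log2 change -2.38, SE 0.23, adjusted p = 0.00144). Cxcr4, the receptor for the niche chemokine CXCL12, read 171, 170, 179, 169 and 148 FPKM in vehicle and 98.4, 68.5 and 79.0 in iCT mice (log2 change -1.03, adjusted p = 0.00364). The hyaluronan receptor Cd44 fell by 0.71 on the log2 scale (adjusted p = 0.00983). Icam2 (-1.12) and Itga1 (-0.97), named after their values were seen, also fell, but Icam2 did not pass without iCT mouse 1 (adjusted p = 0.0794). Itga4 itself overlapped between groups and changed by -0.46 (adjusted p = 0.241).

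**Figure D2:**
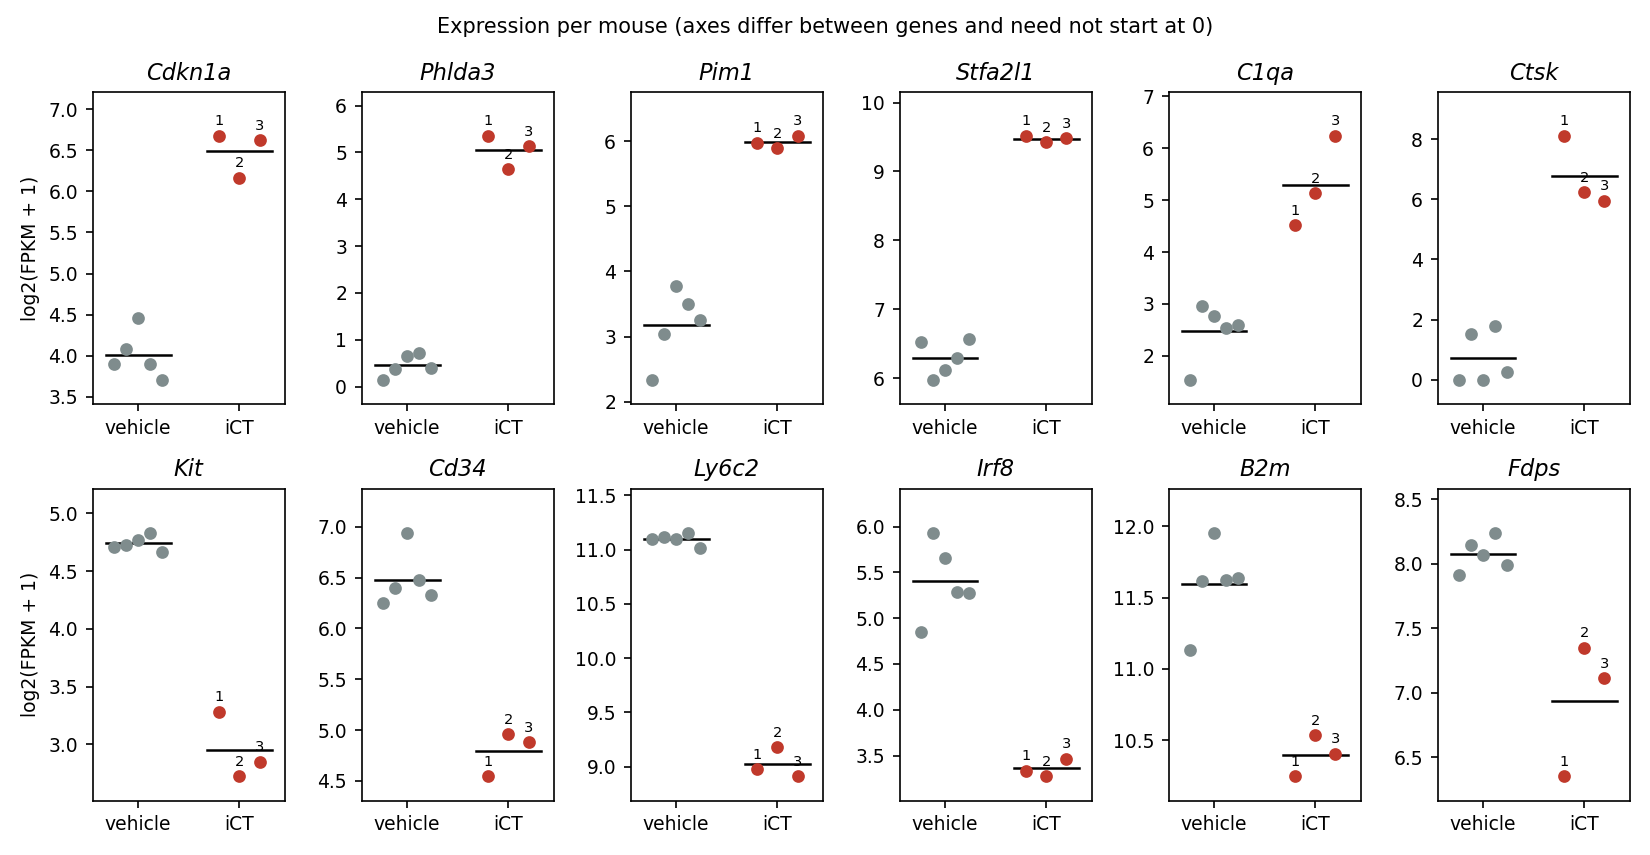
FPKM (vertical axes, log2(FPKM + 1) scale) of 12 genes in each library, with vehicle mice 1 to 5 as grey circles, iCT mice 1 to 3 as red circles numbered by mouse, and a bar at each group's mean of log2(FPKM + 1). Cdkn1a, Phlda3, Pim1, Stfa2l1, C1qa and Ctsk were higher in every iCT mouse, and Kit, Cd34, Ly6c2, Irf8, B2m and Fdps lower, with iCT mouse 1 the highest for Ctsk (277 FPKM).

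Several of the largest changes were in genes outside the lists. Pim1, a serine/threonine kinase induced by cytokine signalling through STAT5 that supports survival (chromosome 17, 29491045 to 29495459), read 4.07, 7.22, 12.7, 10.3 and 8.52 FPKM in vehicle and 62.0, 58.3 and 66.7 in iCT mice. The iCT mice lay within 8.41 FPKM of each other and all above the vehicle mice (log2 change 2.80, SE 0.28, adjusted p = 0.00156). Pik3ip1, an inhibitor of PI3 kinase, fell (11.5, 12.6, 11.5, 15.3 and 11.8 FPKM in vehicle, 0, 3.54 and 3.24 in iCT mice, adjusted p = 0.0259), and iCT mouse 1 was listed at 0. Penk, which encodes proenkephalin, went from 5.22, 6.48, 8.45, 5.64 and 10.5 FPKM to 0, 0.954 and 0.841, under 1 FPKM in every iCT mouse (adjusted p = 0.00364). Tifa, an adaptor of NF-kappaB signalling, and Rdm1, a RAD52-related gene, fell by 2.18 and 2.15 on the log2 scale, and Rdm1 stood at 2.68, 2.68 and 2.56 FPKM in the iCT mice. The genes known by the clone names 2310001H17Rik (-2.45) and 3110009E18Rik (-2.23) were also among the 15 largest falls, as was H2-T22. Unlike these, H2-T22 belongs to a list, that of MHC class I.

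Monocyte antigens were among the strongest falls. Of 41 monocyte genes 10 fell and 1 rose, with a median of -0.35 (9 and 1 without iCT mouse 1, 8 lower without vehicle mouse 2). Ly6c2, the surface antigen of inflammatory monocytes (chromosome 15, 75108161 to 75111949), stood at 2190, 2225, 2191, 2283 and 2065 FPKM in vehicle and at 502, 579 and 480 in iCT mice. Both groups were tight and the gap between them was 1485 FPKM, giving a log2 change of -2.08 (SE 0.10) and an adjusted p of 9.59e-06, which it shared with Stfa2l1 as the smallest of all genes. Its neighbour and close paralog Ly6c1 fell by 1.97 on the log2 scale, and how shared reads were divided between the pair is not given in the sources used here. Irf8, the transcription factor that directs progenitors to monocytes and dendritic cells, read 27.8, 60.2, 49.5, 38.1 and 37.9 FPKM in vehicle and 9.10, 8.67 and 10.1 in iCT mice, without overlap (log2 change -2.04, adjusted p = 0.00188). The 1 riser, the high-affinity Fc receptor gene Fcgr1, stood at 0.353, 1.09, 0, 0.545 and 0.439 FPKM in vehicle and 3.02, 1.85 and 4.21 in iCT mice.

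The pore-forming perforin-2 gene Mpeg1 fell by 2.23 on the log2 scale. Ly86, which encodes MD-1, had 65.6, 67.6, 59.7, 48.2 and 54.2 FPKM in vehicle and 0, 5.32 and 6.08 in iCT mice, a log2 change of -4.07 (adjusted p = 0.00532) that was -3.16 without iCT mouse 1, where it was listed at 0. Cd180, the Toll-like receptor homologue that MD-1 binds, fell with it (7.79, 9.14, 6.88, 5.05 and 7.70 FPKM in vehicle, 0, 1.09 and 2.75 in iCT mice, adjusted p = 0.0239). They were the 2 members that fell among 27 Toll-like receptors and partners, of which 0 rose (median -0.15). Among 38 myeloid transcription factors 0 rose (4 without iCT mouse 2) and 3 fell (1 without vehicle mouse 2), with a median of -0.12: Irf8, Irf5 (-1.46, adjusted p = 0.0485, or 0.0887 without iCT mouse 1) and Cebpa, the factor needed for granulocyte-monocyte progenitors (-0.95, adjusted p = 0.0256). Spi1, Gfi1 and Cebpe had changes of 0.36, 0.07 and -0.16 (adjusted p = 0.114, 0.764 and 0.574).

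Falling Ly6 genes lay side by side. On chromosome 15, between 74796874 and 75111949, 5 of the 6 tested genes fell, which were Ly6k, Ly6e, Ly6a, Ly6c1 and Ly6c2, with changes from -2.09 for Ly6k to -0.90 for Ly6a. Ly6i was the sixth and did not pass. Ly6a did not pass without iCT mouse 1 (adjusted p = 0.0599).

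Some granulocyte genes rose, but the granule genes Ltf, Camp, Ngp and Mmp8 did not pass. Of 48 tested genes of mature neutrophils and their secondary granules 10 rose and 1 fell, with a median of 0.47 (7 and 1 without iCT mouse 1, 5 higher without vehicle mouse 2 and 13 without iCT mouse 2). The risers with the smallest p were the stefins Stfa2, Stfa2l1 and BC100530 and the chitinase-like gene Chil3 (1.53, adjusted p = 0.00515), and the 1 that fell was the protease inhibitor gene Slpi (-1.60), named after its value was seen. Ltf, Camp, Ngp and Mmp8, which mark secondary and tertiary granules, overlapped between the groups, with changes of -0.48, -0.01, 0.58 and 0.20 (adjusted p = 0.711, 0.991, 0.359 and 0.875). Lcn2 and the gelatinase gene Mmp9, whose products neutrophil granules also hold, did rise (1.75 and 2.69, adjusted p = 0.0278 and 0.0193). Lcn2 did not pass without iCT mouse 1 (adjusted p = 0.0541). S100a8 stood at 1716, 2901, 3990, 6085 and 3939 FPKM in vehicle and at 8877, 7799 and 5911 in iCT mice, where iCT mouse 3 was below vehicle mouse 4 (adjusted p = 0.107). The 9 found of 10 mature neutrophil markers summed to 3620 to 13800 FPKM in vehicle and 13000 to 17200 in iCT mice. Of the 8 that were tested 0 passed. Most of the sum was S100a8 and S100a9, the latter at 1150 to 4850 FPKM in vehicle and 4540 to 6540 in iCT mice. Retnlg lay lower instead, at 16.6 to 190 FPKM in vehicle and 5.92 to 46.1 in iCT mice, with overlap. Ms4a3, a membrane protein gene of granulocyte-monocyte progenitors, rose, from 150, 89.7, 92.3, 103 and 117 FPKM to 441, 649 and 330 (log2 change 2.06, adjusted p = 0.00206). In its list of 26 primary granule and progenitor genes 3 rose and 3 fell (median -0.11). Mpo and Elane, the major primary granule genes, had changes of -0.19 and -0.36 (adjusted p = 0.4999 and 0.225).

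The stefin A genes, cytosolic inhibitors of cysteine cathepsins, rose as a block. Of 10 tested stefins and cystatins 7 rose and 0 fell, with a median of 2.30, and the same counts held without iCT mouse 1. Stfa2l1 (chromosome 16, 36156811 to 36161948) read 91.1, 62.3, 68.9, 77.4 and 93.8 FPKM in vehicle and 731, 686 and 716 in iCT mice, and its lowest iCT mouse was 7.32 times its highest vehicle mouse (log2 change 3.18, SE 0.14, adjusted p = 9.59e-06). Stfa2 read 41.2, 24.4, 23.1, 33.3 and 42.4 FPKM in vehicle and 354, 519 and 637 in iCT mice (log2 change 3.90, adjusted p = 0.000106). Stfa1, the most abundant, read 1990, 735, 771, 867 and 1155 FPKM in vehicle and 3940, 5105 and 4264 in iCT mice (log2 change 2.10), with vehicle mouse 1 the highest of its group. The same mouse was the highest vehicle mouse for BC100530, BC117090, Gm5483, Stfa3 and 2010005H15Rik.

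All 7 lay in 1 locus with an eighth riser, 2010005H15Rik. On chromosome 16 between 36156811 and 36455392 (299 kb), 8 of 10 tested genes rose, by 2.05 (BC117090) to 3.90 (Stfa2), and Gm5416 and Gm6815 did not pass. These genes are near-identical copies whose reads can be divided in several ways, so the values of single members are uncertain. The starts of 4 of them are shown because these genes rose together. Each window holds 250 bases before and 50 after the RefSeq start (GRCm38.p6), and capitals mark the longest run that all 4 share, 17 bases, which 6 windows in the table of all genes hold. Aligned pairs of the 4 windows were identical at 80.7% (Stfa1 and Stfa2) to 92.9% (Stfa2 and Stfa2l1) of positions. Positions are chr16:36276898-36277197 (+) for Stfa1, chr16:36408314-36408613 (-) for Stfa2, chr16:36156561-36156860 (+) for Stfa2l1 and chr16:36455343-36455642 (-) for Stfa3.
Stfa1: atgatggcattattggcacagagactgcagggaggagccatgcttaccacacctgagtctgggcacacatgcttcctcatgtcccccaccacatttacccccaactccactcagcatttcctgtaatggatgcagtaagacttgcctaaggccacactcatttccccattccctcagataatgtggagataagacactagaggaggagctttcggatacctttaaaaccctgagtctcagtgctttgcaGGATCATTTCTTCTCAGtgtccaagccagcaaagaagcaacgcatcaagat
Stfa2: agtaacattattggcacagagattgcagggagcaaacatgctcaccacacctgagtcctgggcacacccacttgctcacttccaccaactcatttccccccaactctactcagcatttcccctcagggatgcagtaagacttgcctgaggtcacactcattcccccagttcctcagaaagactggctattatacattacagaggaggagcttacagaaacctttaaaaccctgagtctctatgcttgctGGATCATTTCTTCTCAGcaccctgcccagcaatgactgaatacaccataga
Stfa2l1: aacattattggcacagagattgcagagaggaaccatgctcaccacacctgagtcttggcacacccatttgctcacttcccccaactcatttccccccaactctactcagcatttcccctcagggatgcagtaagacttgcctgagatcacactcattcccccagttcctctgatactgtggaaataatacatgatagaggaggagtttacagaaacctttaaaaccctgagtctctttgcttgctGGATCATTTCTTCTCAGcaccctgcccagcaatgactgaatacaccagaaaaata
Stfa3: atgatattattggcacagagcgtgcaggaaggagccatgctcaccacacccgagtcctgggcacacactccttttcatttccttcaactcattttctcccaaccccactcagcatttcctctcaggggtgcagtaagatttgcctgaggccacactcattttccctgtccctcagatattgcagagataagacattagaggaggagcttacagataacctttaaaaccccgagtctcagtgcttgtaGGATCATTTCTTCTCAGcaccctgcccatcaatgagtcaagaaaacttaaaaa

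**Figure D3:**
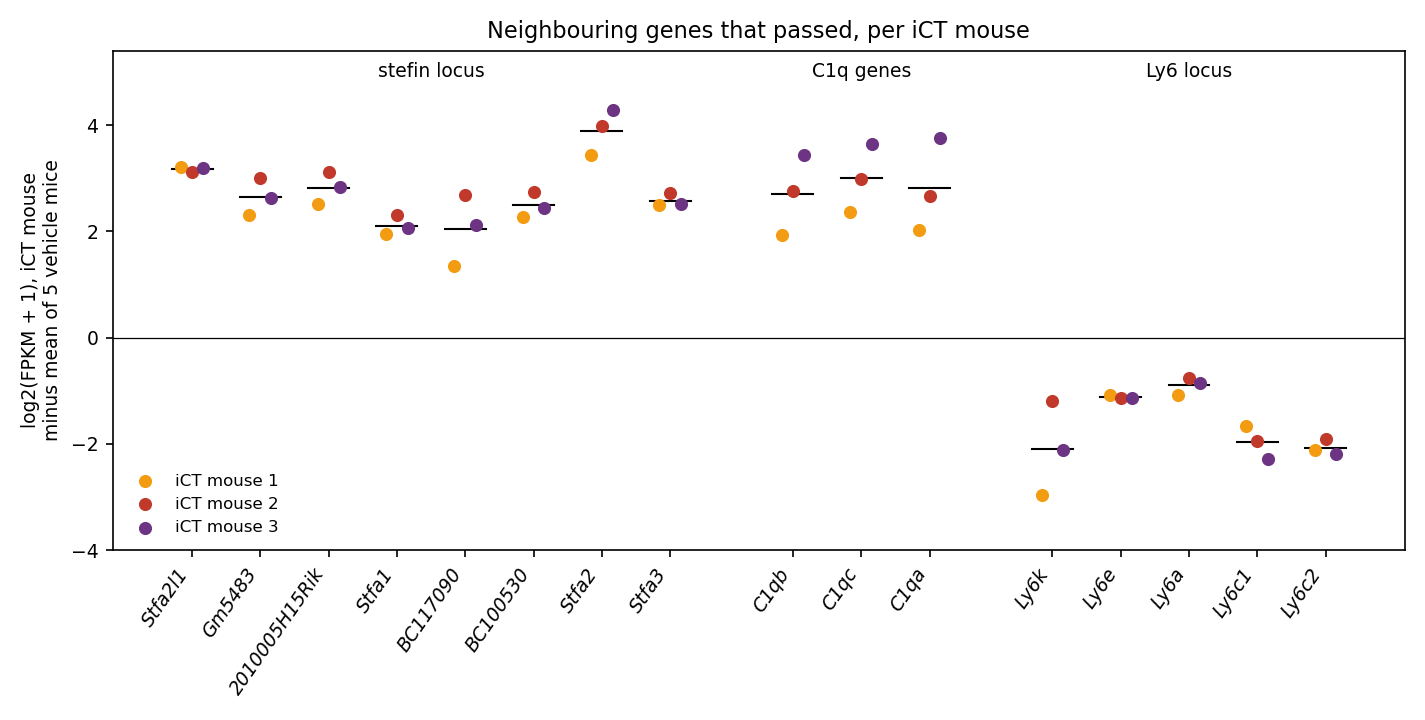
Log2 change of each iCT mouse against the mean of the 5 vehicle mice (vertical axis, log2(FPKM + 1) scale) for the 8 stefin locus genes, the 3 C1q genes and the 5 Ly6 genes that passed, 1 circle per iCT mouse and a bar at their mean. Every circle of the stefin and C1q genes lies above 0 and every circle of the Ly6 genes below it.

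A set of macrophage genes rose, with the mice ordered differently from gene to gene. Of 33 tested tissue macrophage genes (of 47 listed) 13 rose and 1 fell, with a median of 0.97 (13 and 1 without iCT mouse 1 with the same genes tested, 7 higher without iCT mouse 3). C1qa, a chain of the complement component that macrophages secrete (chromosome 4, 136895916 to 136898844), read 1.91, 6.78, 5.81, 4.797 and 5.06 FPKM in vehicle and 21.9, 34.2 and 74.6 in iCT mice, with iCT mouse 3 the highest (log2 change 2.82, SE 0.41, adjusted p = 0.00776). C1qb and C1qc, which lie within 19 kb of it on chromosome 4, rose by 2.71 and 3.00 and had iCT mouse 3 the highest too. Apoe, the lipid carrier, read 3.67, 14.7, 7.37, 10.5 and 13.9 FPKM in vehicle and 83.1, 43.4 and 52.6 in iCT mice, with iCT mouse 1 the highest (log2 change 2.54, adjusted p = 0.00991). Folr2 and Mrc1, receptors of resident macrophages, were under 1 FPKM in every vehicle mouse and stood at 5.49, 2.20 and 4.92 and at 6.58, 2.13 and 3.31 FPKM in the iCT mice, the levels through which they entered the test. Adgre1, which encodes F4/80 and was the 1 that fell, read 85.1, 80.0, 87.4, 72.8 and 76.1 FPKM in vehicle and 14.2, 20.8 and 31.8 in iCT mice (log2 change -1.87, adjusted p = 0.00218).

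Osteoclast genes rose most in iCT mouse 1. Of 17 tested 6 rose and 0 fell, with a median of 0.59, or 0.40 without iCT mouse 1, where 7 rose and 0 fell, and 2 rose without vehicle mouse 2. Ctsk, cathepsin K, which degrades bone collagen (chromosome 3, 95499210 to 95509387), read 0, 1.89, 0, 2.47 and 0.190 FPKM in vehicle mice and 277, 75.0 and 61.1 in iCT mice. The 3 iCT mice were all above the vehicle mice, with mouse 1 at 277 FPKM, and the log2 change of 6.06 (SE 0.59, adjusted p = 0.00144) was 5.39 without it. Acp5, the tartrate-resistant acid phosphatase, read 11.3, 10.4, 10.8, 23.8 and 13.8 FPKM in vehicle and 347, 82.2 and 74.9 in iCT mice (log2 change 3.18, or 2.47 without mouse 1). Dcstamp, a fusion protein of osteoclast precursors, was listed at 0 in all 5 vehicle mice and stood at 5.90, 1.62 and 1.74 FPKM in iCT mice. It entered the test because of its level in iCT mice, so its place among the 6 is no independent support. Mmp9, a gelatinase of osteoclasts and neutrophils, read 10.9, 26.8, 33.4, 49.0 and 30.9 FPKM in vehicle and 328, 93.8 and 193 in iCT mice, and creatine kinase B (Ckb) 2.20, 4.68, 4.58, 2.16 and 1.13 and 79.1, 15.3 and 10.97. The calcitonin receptor gene Calcr, a marker of mature osteoclasts, was listed at 0 in every vehicle mouse and reached 0.294 FPKM at most in iCT mice.

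Bulk values of a sorted fraction cannot tell more cells of a type from more RNA per cell. The 10 macrophage markers summed to 142 to 186 FPKM in vehicle and 155 to 283 in iCT mice, with 4 of the 7 tested higher and 1 lower. Mrc1, among the 4, entered the test through its level in iCT mice. In vehicle mice most of the sum was Vcam1 (42.2 to 94.0 FPKM) and Adgre1 (72.8 to 87.4), and Adgre1 was the 1 that fell. Of the 10 markers Timd4 was under 1 FPKM in all 8 libraries, and Siglec1 was at 0 to 0.121 FPKM in vehicle and at 3.89, 0.809 and 5.24 in iCT mice. The 8 osteoclast markers summed to 14.2 to 30.0 FPKM in vehicle and 145 to 666 in iCT mice, with 4 of the 6 tested higher. The part of other GFP-positive or carried-over cells in these rises was not tested. Stromal and bone-forming markers summed to 2.96 to 30.6 FPKM in vehicle and 6.47 to 11.2 in iCT mice, endothelial markers to 9.15 to 13.8 and 3.70 to 7.65, and T and natural killer cell markers to 2.18 to 3.27 and 0 to 6.46, with 5 of the 8 under 1 FPKM in every library. Erythroid markers summed to 15 to 291 FPKM in vehicle and 3.94 to 12.3 in iCT mice. Hbb-b1, a beta-globin gene with near-identical copies and the largest fall of all, read 4.36, 24.8, 56.0, 99.4 and 56.3 FPKM in vehicle and 0, 2.45 and 0.585 in iCT mice (log2 change -4.27, adjusted p = 0.0288, or 0.0568 without iCT mouse 1). Vehicle mouse 1, with the lowest erythroid sum of its group (15 FPKM), was near the iCT mice in this sum, and it had the lowest neutrophil sum of all 8 libraries.

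**Figure D4:**
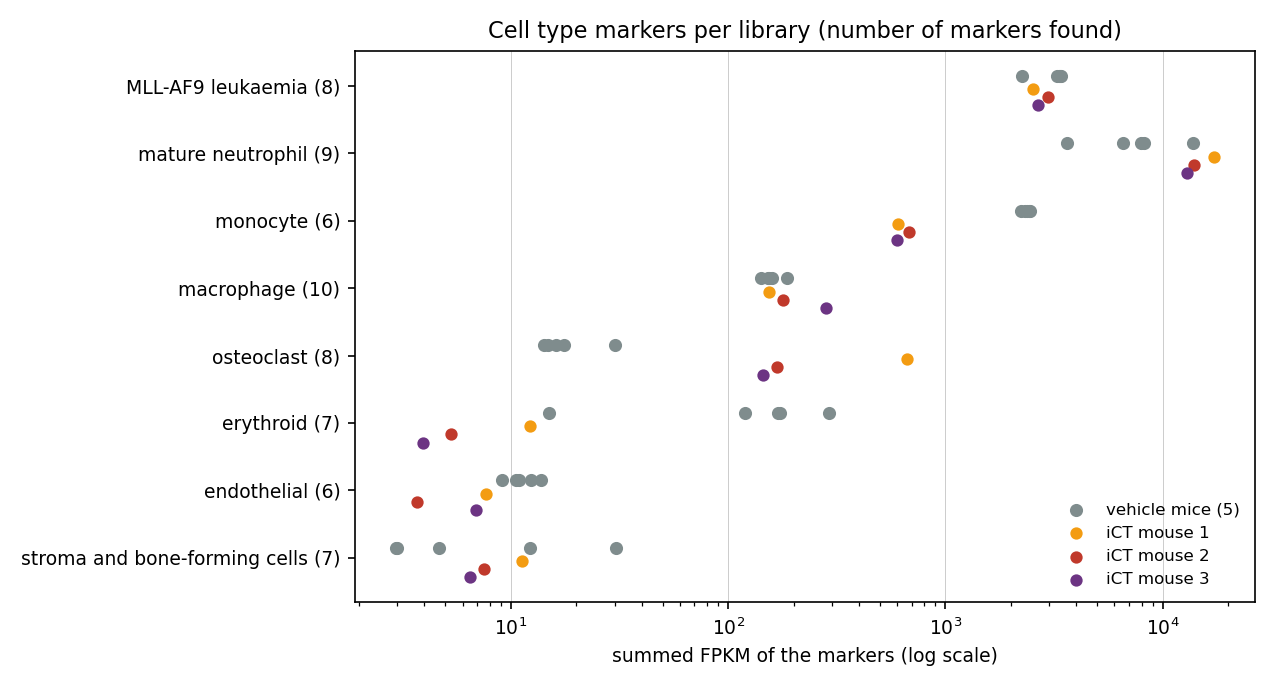
Summed FPKM of the markers of 8 cell types (horizontal axis, log scale) in each library, with vehicle mice as grey circles and iCT mice 1, 2 and 3 as orange, red and purple circles. The osteoclast sum was 145 to 666 in iCT mice against 14.2 to 30.0 in vehicle mice, the monocyte sum 596 to 681 against 2230 to 2450, and the macrophage and neutrophil sums overlapped. Most of the monocyte sum was Ly6c2, at 480 to 579 FPKM in iCT and 2060 to 2280 in vehicle mice. Of the 6 monocyte markers 2 passed, both lower. The endothelial sum was nearly all Pecam1, and most of the neutrophil sum was S100a8 and S100a9.

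Among the smaller groups of secreted and surface genes, chemokines gave some of the largest single changes. Of 15 chemokine ligands 2 rose and 1 fell (median 0.62), or 6 and 1 without iCT mouse 1. Ccl8, a chemokine of tissue macrophages, read 0, 1.205, 0, 2.62 and 2.12 FPKM in vehicle and 77.8, 28.3 and 37.9 in iCT mice (log2 change 4.56, adjusted p = 0.00203). Pf4, platelet factor 4, rose by 2.76 (adjusted p = 0.0183), while the platelet marker Gp9 overlapped (adjusted p = 0.653). The 1 that fell was Ccl3 (-0.98, adjusted p = 0.0206). Of 13 mast cell, basophil and eosinophil genes 4 fell, with the histidine decarboxylase gene Hdc at 72.8, 64.2, 76.5, 88.2 and 80.4 FPKM in vehicle and 26.3, 24.3 and 28.1 in iCT mice (adjusted p = 0.000565), and 1 rose, the 5-lipoxygenase gene Alox5 (1.36). Besides Hdc and Kit the falls were the eosinophil granule gene Prg3 (-1.95) and the lectin gene Siglecf (-1.94). The basophil marker Mcpt8 and the mast cell marker Cpa3 overlapped between groups (adjusted p = 0.756 and 0.494). None of 4 B cell, 3 plasma cell, 6 T and natural killer cell and 9 dendritic cell genes tested passed (0 rose and 0 fell by limma), and 2, 1, 0 and 1 of them had an unadjusted p under 0.05.

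Antigen presentation by MHC class I was lower across nearly the whole list. Of 30 tested genes 4 fell and 0 rose, the median was -0.76, and 1 of 30 had a change above 0. The count of falls was 2 without vehicle mouse 2 and 12 without vehicle mouse 1. B2m encodes the invariant light chain (chromosome 2, 122147687 to 122153082). It read 2240, 3138, 3974, 3163 and 3184 FPKM in vehicle and 1213, 1482 and 1353 in iCT mice. The lowest vehicle mouse, mouse 1, was above the highest iCT mouse (log2 change -1.20, SE 0.17, adjusted p = 0.00704). After removal of length and GC trends the change of B2m was -0.87 and did not pass (adjusted p = 0.0535). H2-K1, a classical heavy chain, read 524, 1185, 1057, 1119 and 960 FPKM in vehicle and 299, 442 and 503 in iCT mice (adjusted p = 0.0465, or 0.0978 without iCT mouse 1). The non-classical genes H2-T23 and H2-T22, which have close paralogs, fell by 1.14 and 2.41 on the log2 scale. In 12 of the 30 all iCT mice lay below all vehicle mice, where 10.7% of all genes tested did so. For MHC class II, 1 of 16 rose, the processing protease legumain (Lgmn, 2.35), and 2 fell, H2-DMa (-0.78) and H2-Ob (-1.05), with a median of 0.00, and H2-Ob did not pass without iCT mouse 1 (adjusted p = 0.0519).

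Interferon-stimulated genes had a median of -0.34 over 61 members, of which 1 rose and 1 fell. The faller was the guanylate-binding protein gene Gbp3 (15.6, 34.1, 33.6, 29.3 and 28.2 FPKM in vehicle, 5.51, 10.1 and 8.66 in iCT mice, adjusted p = 0.0139) and the riser the membrane protein gene Ifitm2 (216, 243, 216, 248 and 218 and 512, 432 and 372 FPKM, adjusted p = 0.00450). Sp100, Sp110 and Sp140, neighbours on chromosome 1 between 85576899 and 85709448 that encode nuclear body proteins and were named after their values were seen, all fell, by 0.68, 0.57 and 0.69 on the log2 scale. Without iCT mouse 1 Sp110 and Sp140 did not pass (adjusted p = 0.0808 and 0.0589). Of 17 inflammatory cytokines and mediators 0 rose and 0 fell by limma (median -0.29; 10 at an unadjusted p under 0.05, 9 of them lower), and the lowest p were those of Il15 and Hgf (adjusted p = 0.0652 and 0.0648). Among 45 Fc, lectin and paired receptors 3 rose and 4 fell (median -0.23). Without iCT mouse 1 the median was 0.04, with 2 higher and 4 lower, or 0 higher with the filter applied anew. Among the falls were the lectin Clec12a, the GPI-anchored antigen Cd52 (-1.09) and the receptor Cd300lb (-1.77).

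**Figure D5:**
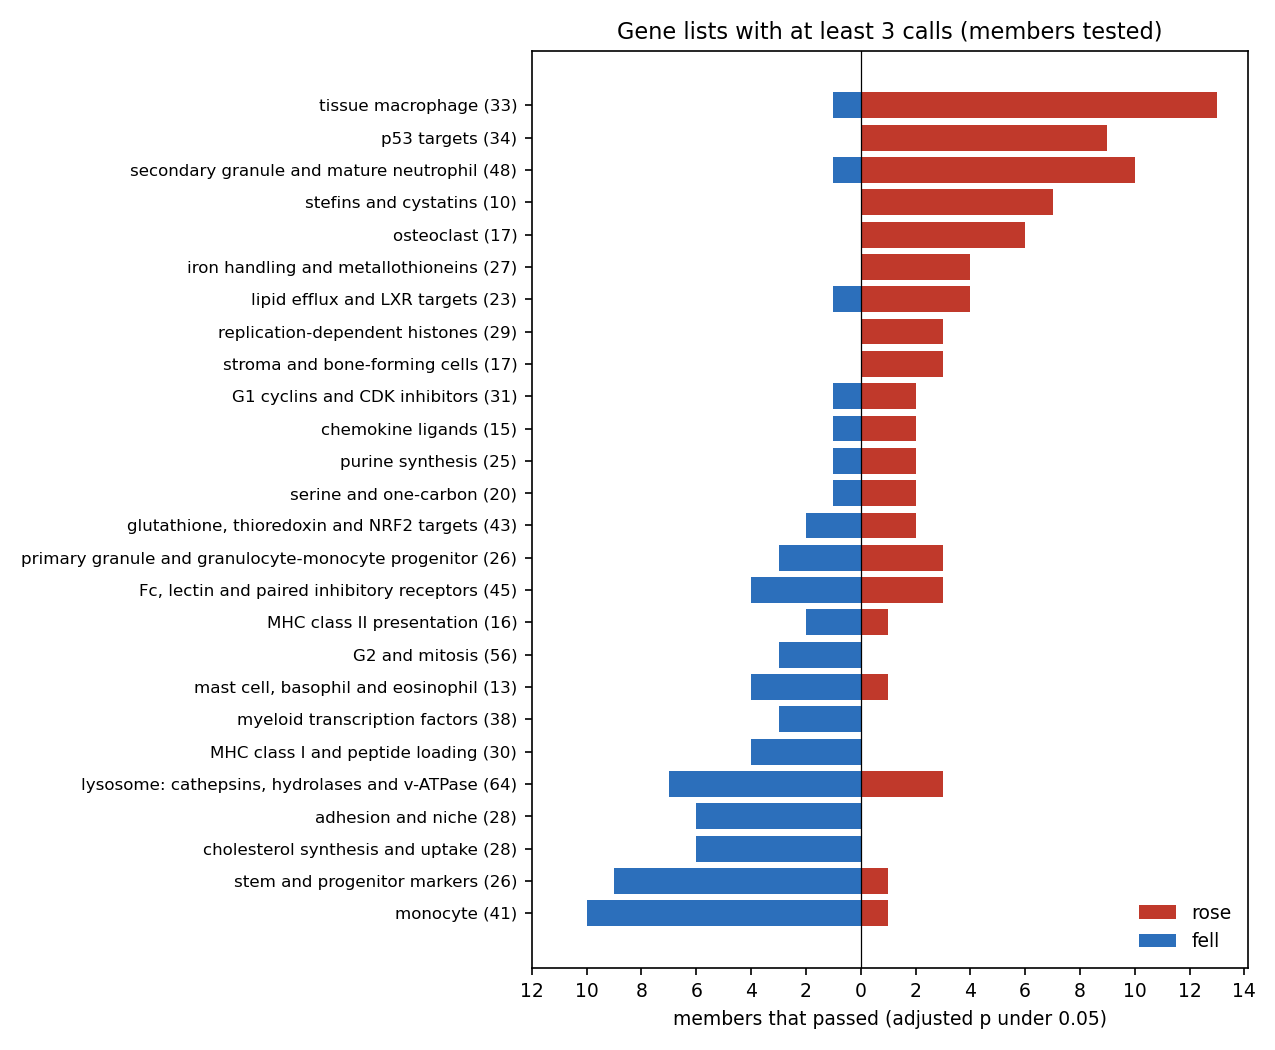
Number of members that rose (red, to the right) and fell (blue, to the left) in each gene list with at least 3 calls, with the number of members tested after each name. Tissue macrophage (13 of 33), secondary granule (10 of 48) and p53 targets (9 of 34) had the most rises, and monocyte (10 of 41), stem and progenitor (9 of 26) and lysosome (7 of 64) the most falls.

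Lysosomal hydrolases moved both ways. Of 64 tested genes 7 fell and 3 rose (median -0.10), or 5 and 4 without iCT mouse 1. The 3 that rose with all 8 libraries were Ctsk, Acp5 and Lgmn. The carboxypeptidase gene Scpep1 read 25.0, 36.5, 33.9, 34.5 and 26.2 FPKM in vehicle and 2.57, 7.92 and 6.25 in iCT mice (log2 change -2.38, adjusted p = 0.00272), and the aminopeptidase gene Ctsh, cathepsin H, fell by 1.60 on the log2 scale. Npc2, which moves cholesterol out of lysosomes, was among those that fell (-0.62, adjusted p = 0.0175).

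Genes of sterol synthesis fell or lay lower. Of 28 tested genes of cholesterol synthesis and uptake 6 fell and 0 rose, the median was -0.65, and 2 of 28 had a change above 0 (7 fell without iCT mouse 1, 11 without iCT mouse 2 and 0 without vehicle mouse 2). All iCT mice lay below all vehicle mice in 14 of the 28, against 10.7% of all genes tested. Fdps, farnesyl diphosphate synthase, read 240, 283, 267, 302 and 253 FPKM in vehicle and 80.7, 162 and 137 in iCT mice (log2 change -1.13, SE 0.20, adjusted p = 0.0190). Squalene epoxidase (Sqle) read 13.4, 22.4, 18.9, 22.1 and 18.0 FPKM in vehicle and 8.498, 10.3 and 7.54 in iCT mice. The late enzymes Sc5d and Dhcr7 fell by 0.91 and 0.80 on the log2 scale (adjusted p = 0.0239 and 0.0312). The sterol sensor gene Insig1, named after its value was seen, also fell (-0.93). Fatty acid synthesis, which shares regulators with this pathway, had 0 of 19 higher and 0 lower by limma (median 0.00), with 1 higher and 6 lower at an unadjusted p under 0.05.

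Promoters of 3 falling sterol genes are shown because genes of this pathway are known to bind the CCAAT factor NF-Y near their starts. The letters CCAAT, on either strand, occurred in 18 of 27 windows of the list (66.7%; 21 of 28 members had a window) and in 37.4% of the 32851 windows of all genes. The sterol element searched, TCACNCCAC on both strands, occurred in 1 of the 27 windows, that of the synthase gene Hmgcs1 (named after the search), and in 1.24% of all windows. Windows are as above, at chr5:28071162-28071461 (+) for Insig1, chr9:42264251-42264550 (-) for Sc5d and chr7:143822917-143823216 (+) for Dhcr7, with CCAAT or its reverse complement in capitals. The windows of Insig1 and Sc5d each hold it once. The Dhcr7 window shown does not hold it, and a window at another start of that gene, counted among the 18, does.
Insig1: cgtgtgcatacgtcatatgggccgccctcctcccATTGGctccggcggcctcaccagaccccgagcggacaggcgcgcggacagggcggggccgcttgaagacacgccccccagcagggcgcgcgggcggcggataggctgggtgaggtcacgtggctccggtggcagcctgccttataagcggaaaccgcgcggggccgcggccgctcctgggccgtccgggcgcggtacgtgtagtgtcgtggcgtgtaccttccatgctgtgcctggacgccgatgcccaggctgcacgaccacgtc
Sc5d: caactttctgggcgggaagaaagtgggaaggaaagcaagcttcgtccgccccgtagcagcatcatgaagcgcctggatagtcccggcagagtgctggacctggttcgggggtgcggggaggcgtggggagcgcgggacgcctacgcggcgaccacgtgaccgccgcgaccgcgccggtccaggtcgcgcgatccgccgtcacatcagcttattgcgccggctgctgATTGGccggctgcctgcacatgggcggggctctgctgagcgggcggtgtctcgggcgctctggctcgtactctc
Dhcr7: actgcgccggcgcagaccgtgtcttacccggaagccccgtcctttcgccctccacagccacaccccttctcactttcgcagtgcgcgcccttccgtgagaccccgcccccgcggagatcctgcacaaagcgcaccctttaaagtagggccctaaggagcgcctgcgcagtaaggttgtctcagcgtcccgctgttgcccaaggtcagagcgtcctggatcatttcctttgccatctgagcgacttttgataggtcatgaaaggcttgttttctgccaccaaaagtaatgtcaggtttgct

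Lipid handling gave some rises, mostly of macrophage genes. Of 23 genes of lipid efflux and of the oxysterol receptor LXR 4 rose and 1 fell (median 0.00), and the 4 were Apoe, Pltp, Trem2 and Lpl. Without iCT mouse 1 the count was 1 higher, Apoe, and 1 lower, with Trem2 and Lpl at adjusted p = 0.0527 and 0.0716. In fatty acid uptake and oxidation 2 of 28 rose and 0 fell (median -0.15): Cpt1a, the gate of mitochondrial fatty acid import (16.7, 15.7, 12.5, 14.2 and 12.9 FPKM in vehicle, 47.5, 22.3 and 28.5 in iCT mice, adjusted p = 0.0375), and the thiolase gene Acaa2 (0.62, adjusted p = 0.0312, or 0.0541 without iCT mouse 1).

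The series title speaks of a timed metabolic collapse, which mRNA levels at 3 days do not measure and which was not tested. Apart from sterol synthesis, the metabolic lists mostly stayed near the background. For glutamine and aspartate use 0 of 31 rose and 0 fell by limma (median 0.04), with 9 at an unadjusted p under 0.05. The carrier Slc1a5 read 51.2, 54.6, 46.6, 53.7 and 52.2 FPKM in vehicle and 39.5, 59.0 and 64.5 in iCT mice, with overlap (adjusted p = 0.886). Glutamine synthetase (Glul) and the aspartate transaminases Got1 and Got2 had changes of 0.21, 0.01 and 0.39 (SE 0.17, 0.13 and 0.13). The exchanger genes Slc7a5 and Slc3a2 came closest, at 0.52 and 0.53 (adjusted p = 0.0677 and 0.0710), and Slc7a5 passed without iCT mouse 1 (adjusted p = 0.0343). In pyrimidine synthesis 1 of 25 rose, Rrm2, and 0 fell (median 0.00). Cad, which carries out the first steps, read 14.9, 26.5, 28.5, 30.0 and 25.1 FPKM in vehicle and 41.1, 26.1 and 42.3 in iCT mice, Dhodh 16.9 ± 2.41 (SD, n = 5) and 18.4 ± 0.212 (SD, n = 3), and Umps 51.1 ± 3.09 (SD, n = 5) and 52.1 ± 12.9 (SD, n = 3), with adjusted p = 0.226, 0.619 and 0.997.

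Phgdh, which encodes the first enzyme of serine synthesis (chromosome 3, 98313171 to 98339969), rose. It read 14.3, 26.2, 21.0, 23.2 and 21.6 FPKM in vehicle and 82.1, 71.1 and 68.5 in iCT mice, and the lowest iCT mouse was 2.61 times the highest vehicle mouse (log2 change 1.77, SE 0.18, adjusted p = 0.00156). In its list of serine and one-carbon genes 2 of 20 rose and 1 fell (median 0.13). The other riser was Folr2, which is also in the macrophage list, and the one that fell was Ggh, the hydrolase that removes glutamates from folates (-1.24, adjusted p = 0.00875). In purine synthesis 2 of 25 rose, among them adenosine deaminase (Ada, 0.83), and 1 fell, Adss (-0.81); without iCT mouse 1 the counts were 0 and 1. G6pdx, which starts the pentose phosphate pathway and supplies NADPH, was the 1 riser of 35 genes of that pathway and of glycolysis, from 61.9, 88.9, 77.0, 80.8 and 78.8 FPKM in vehicle to 160, 118 and 144 in iCT mice (adjusted p = 0.0159).

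Energy metabolism gave few calls with all 8 libraries. Of 76 respiratory chain and ATP synthase genes 0 rose and 0 fell by limma (median -0.07, with 14 at an unadjusted p under 0.05), of 32 TCA cycle genes 0 rose and 1 fell, the malate dehydrogenase gene Mdh1 (-0.61, adjusted p = 0.0467, or 0.0849 without iCT mouse 1), and of 76 mitochondrial ribosome genes 1 rose and 0 fell. Without iCT mouse 2, where 1065 of all genes passed, 16 respiratory chain, 2 TCA cycle and 5 mitochondrial ribosome genes fell. Among 37 genes induced by hypoxia-inducible factor, 2 fell and 0 rose, with a median of -0.29, or -0.14 without iCT mouse 1, and the falls ranged from 0 without vehicle mouse 1 to 4 without iCT mouse 2. The 2 were the collagen hydroxylase gene P4ha1 (-0.99) and the oxygen sensor gene Egln3 (-0.82, adjusted p = 0.0541 without iCT mouse 1).

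Genes of ribosome production and amino acid stress lay slightly above the median gene and gave few calls. In ribosome biogenesis 46 of 57 genes had a change above 0 (median 0.23) and 15 had every iCT mouse above every vehicle mouse, where 5.6% of all genes did so. Only the spermidine synthase gene Srm passed (0.56, adjusted p = 0.0288, or 0.0527 without iCT mouse 1). Myc, a driver of that programme, read 54.9, 69.2, 64.9, 62.9 and 64.0 FPKM in vehicle and 119, 57.2 and 83.7 in iCT mice, with overlap (adjusted p = 0.270). Among 45 ATF4 targets and tRNA synthetases 38 were above 0 (median 0.33) and 19 were separated upward, and 2 rose, Phgdh and the tryptophanyl-tRNA synthetase gene Wars (0.57, adjusted p = 0.0406, or 0.0571 without iCT mouse 1). Without iCT mouse 2, 6 ribosome biogenesis genes and 9 of the ATF4 list rose. Asparagine synthetase (Asns), a classical ATF4 target, read 45.4, 47.6, 50.4, 50.7 and 49.7 FPKM in vehicle and 93.4, 63.8 and 38.5 in iCT mice, which spread over the vehicle range. The letters TGATGNAA, on either strand, occurred in 12 of 39 promoter windows of this list (30.8%) and in 3.97% of all windows. The 12 members with them did not include Phgdh or Wars, and 34 of the 45 members had a window. This share describes the listed promoters and not the expression values. Cytosolic ribosomal proteins had 0 of 79 higher and 0 lower by limma (median -0.12), with 10 at an unadjusted p under 0.05, and 15 fell without iCT mouse 2.

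Iron, redox and inflammatory lipid genes gave a few calls each. Of 27 iron genes 4 rose and 0 fell (median 0.15): the ferritin heavy chain Fth1 (604, 691, 674, 702 and 637 FPKM in vehicle, 975, 1054 and 1198 in iCT mice, adjusted p = 0.00813), Hmox1, the siderophore binder Lcn2 (1.75, adjusted p = 0.0278, or 0.0541 without iCT mouse 1) and the metalloreductase Steap4 (adjusted p = 0.0564 without iCT mouse 1). Steap4 was under 1 FPKM in every vehicle mouse and entered the test because of its level in iCT mice. In the glutathione, thioredoxin and NRF2 list 2 of 43 rose, Hmox1 and G6pdx, and 2 fell, the peroxidases Gpx3 (-0.80) and Mgst1 (-0.94). Of 18 genes of leukotriene and prostaglandin synthesis Alox5 rose and Lta4h, the next enzyme toward leukotriene B4, fell. Lta4h read 395, 367, 365, 372 and 377 FPKM in vehicle and 268, 265 and 266 in iCT mice. The difference was small but tight (log2 change -0.49, SE 0.08, adjusted p = 0.0153). It did not pass after removal of length and GC trends (adjusted p = 0.0769).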

How the data were processed

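RNA-seq was done on total RNA of GFP-sorted bone marrow leukaemia cells, 1 library per mouse, with 5 vehicle and 3 iCT mice compared. STAR and Cufflinks are named in the submitters' processing notes, without versions. Each deposited table gives FPKM per gene with its confidence interval, as the authors made it with Cufflinks. The notes name mm9, but of 23070 single-locus symbols 22932 (99.4%) lay over the GRCm38 gene that bears the symbol, 12938 of them with an identical start or end, so coordinates are given as GRCm38. Of 24883 entries, 2 failed estimates were left out. Library totals are not given in the tables, and the implied fragments (361914 to 8359793) came from the width of the intervals. How reads of near-identical genes were divided is not given in the sources used here.

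Genes with at least 1 FPKM in at least 3 of the 8 libraries were tested with limma 3.58.1 (R 4.3.3, with a trend on mean expression) on log2(FPKM + 1), with Benjamini-Hochberg adjustment over 10723 genes and a threshold of 0.05. A log2 change is on that scale, which understates the change of low genes. The test was tried on simulated data with known changes. The mice were grouped by their titles. The 64 gene lists (1692 distinct genes tested), the markers and the genes followed one by one were chosen with earlier results of these data known. Named genes are the 15 largest rises and falls among called genes with at least 5 FPKM in a group and no overlap, up to 4 called members of each list (or up to 2 members where fewer than 2 passed), a list of single genes, called neighbours within 200 kb, and the markers. Genes outside this rule are said to be named after their values were seen or are neighbours given to complete a locus. Some genes the rule names are not reported here. Alternatives were pseudocounts of 0.5 and 0.1, 3 other filters, 2 scalings, all 12 libraries, 2 kinds of weights, 2 variance priors, a replicate block, removal of length and GC trends, and each library left out. The fit without iCT mouse 1 that keeps the same genes was added after seeing the data.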

Additional observations from a re-analysis of the deposited data

Results flagged for a closer look

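Among the 5 vehicle mice, 1 mouse stood far from the others for 8 of the 187 genes checked, with a gap to its nearest neighbour over Dixon's critical value of 0.71 of the group's range. Chance flags about 1 in 20 such groups, and the 3 iCT mice are too few for this check. Vehicle mouse 3 was high for Cd34, at 122.1 FPKM against 75.24 to 88.05, and for the p53 target Ccng1, at 59.37 against 37.15 to 41.35. The Cd34 value lay farther from the iCT mice than the rest of its group, and the Ccng1 value lay nearer to them. Vehicle mouse 1 was low for the primary granule gene Mpo, at 1915 FPKM against 2923 to 3087, and for the transaminase gene Got1, at 19.28 against 23.21 to 24.81, and high for the mast cell carboxypeptidase gene Cpa3, at 4.036 against 1.168 to 1.779. Vehicle mouse 4 was high for the osteoclast phosphatase gene Acp5, at 23.85 FPKM against 10.37 to 13.8. Vehicle mouse 5 was high for the proliferation marker Mki67, at 13.97 FPKM against 6.391 to 8.509, and held the 1 value above 0 of Folr2 in vehicle mice, 0.1493 FPKM.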

How the results depend on the processing

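No called gene changed sign under any of the 23 settings. The fit of 12 libraries called 1080 genes (372 higher, 708 lower) and precision weights 595 (217 and 378). Quantile normalization called 198 higher, removal of length and GC trends 241 higher, and no filter on low values 155 lower. With 1 library left out at a time, 124 to 1065 genes passed, 49 to 351 higher and 75 to 714 lower. The remaining settings stayed within 1.5 times of 351, 118 and 233. With the mouse number as a replicate block 34 genes passed (19 higher, 15 lower), but iCT and vehicle mice of the same number did not deviate together (r = -0.018, -0.074 and -0.069 across genes), so the mice share a number only. Of 136 named genes that passed, 112 kept their call at a pseudocount of 0.1, 97 with no filter, 108 without the variance trend, 28 with the block and 70 without vehicle mouse 5. After removal of length and GC trends 117 of 135 named genes kept their call. In iCT mouse 1 only 5950 genes were expected to reach 10 fragments, and among these 337 passed (108 higher, 229 lower).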
